A study of Danio rerio with 8 samples.

Results

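Neurotransmitter receptor transcripts were examined in rods and in the remaining cells of the adult zebrafish retina. The genes were taken by symbol from the annotated gene table that accompanies the counts: every entry named as an AMPA, kainate, delta or NMDA receptor subunit, a metabotropic glutamate receptor, a GABA-A, rho or GABA-B subunit, a glycine, nicotinic or muscarinic receptor, or a dopamine receptor. The rule found 57 of the 13325 genes of that table, or of 33737 gene IDs counted. Of these, 56 are receptor genes, and the last, *grid2ipb*, encodes a scaffold protein of glutamatergic synapses that the symbol rule also picks up. All libraries came from fish of 1 genotype, the *xops:eGFP* line, in which rods express eGFP from a *Xenopus* rod opsin promoter. After dark adaptation of 4 fish, both retinas of each were digested with trypsin and papain and the cells separated by fluorescence-activated cell sorting into GFP+ cells, the rods, and GFP- cells, which hold the cones, the inner retinal neurons, glia and any other cells of the suspension. Each fish gave 1 GFP+ and 1 GFP- library, 4 of each kind, and the fish labelled 1, 2, 2_2 and 5_2 are called fish 1 to 4 below.

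Photoreceptors release glutamate in the dark, and the second-order cells read it through ionotropic receptors of the AMPA and kainate types (horizontal and OFF bipolar cells) or through the metabotropic receptor mGluR6 (ON bipolar cells). GABA-A, rho and glycine receptors are ligand-gated chloride channels that carry most inhibition from amacrine cells. GABA-B and metabotropic glutamate receptors act through G proteins. Photoreceptors themselves also carry receptors: dopamine D4 receptors lower cAMP in photoreceptors of mammals, and GABA receptors on cone terminals receive feedback in several vertebrates. The comparison of GFP+ with GFP- cells of the same fish asks which receptor transcripts were enriched, present or depleted in rods.

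Levels are given as CPM, the counts per 1e+06 counts of the library size scaled by the trimmed mean of M values (TMM). They are not divided by transcript length, so a level is compared only with that of the same gene in another library. A GFP+ library held 1722055 to 2206479 gene counts and a GFP- library 1865121 to 2514874. At this depth 3 counts, the most that a count of 0 allows, correspond to 0.982 to 2.12 CPM in GFP+ libraries and to 0.937 to 3.10 CPM in GFP- libraries. Such limits cover counting error only. Mitochondrial genes took 12.4 to 39.3% of the counts in GFP+ libraries and 25.0 to 66.1% in GFP- libraries, and the 57 genes together had 926 to 2890 counts in a GFP+ library and 1179 to 5909 in a GFP- library. Fish 3 had the highest mitochondrial share and the fewest receptor counts in both populations.

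The sorted populations were described by marker lists. These lists were chosen with earlier results of these data known, so their outcome is no independent check of the sort. All 18 rod markers were higher in GFP+ libraries at a false discovery rate (FDR) under 0.01, with a summed level of 44454 to 82455 CPM in GFP+ libraries and 3589 to 17895 CPM in GFP- libraries. Cone markers summed to 3340 to 5941 CPM in GFP+ libraries, against 19931 to 37115 CPM in GFP- libraries, and 14 of 14 tested were lower in GFP+ libraries. Bipolar markers summed to 360.5 to 1013 CPM in GFP+ libraries and 982 to 2762 CPM in GFP- libraries (3 of 13 tested lower). For amacrine markers the sums were 150.0 to 307 CPM in GFP+ libraries and 406 to 566 CPM in GFP- libraries (2 of 9 tested lower), and for microglia and macrophage markers 34.0 to 208 CPM in GFP+ libraries and 1667 to 4207 CPM in GFP- libraries (9 of 9 tested lower, with *mpeg1*, a macrophage perforin, at 0 counts in all 4 GFP+ libraries). Müller glia markers summed to 1601, 744, 1146 and 1083 CPM in GFP+ libraries of fish 1 to 4. Their GFP- libraries had 1510.2, 1510.5, 1529 and 2156 CPM, and 0 of 9 tested were lower. Horizontal cell markers summed to 31.2 to 51.8 CPM in GFP+ and 54.3 to 71.0 CPM in GFP- libraries (0 of 3 tested lower). Ganglion cell markers summed to 33.8 to 66.5 CPM in GFP+ and 76.0 to 130 CPM in GFP- libraries (0 of 4). Transcripts of cones, inner neurons and glia were therefore measured in GFP+ libraries too, those of cones and inner neurons at lower levels. Rod markers were in turn measured in GFP- libraries, where they summed to 3589, 5223, 17895 and 14524 CPM in fish 1 to 4. Their median log2 fold change was 3.62 in fish 1 and 2 and 2.14 in fish 3 and 4. The part of such transcripts in the receptor values below, and in differences between these pairs of fish, was not tested. In sorted bulk RNA, fewer cells of a type and less RNA per cell cannot be told apart.

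Receptor transcripts were, as a group, lower in rods than in the other retinal cells. Summed over the 56 receptor genes, the level was 904, 811, 540 and 545 CPM in GFP+ libraries of fish 1 to 4, against 1832, 1746, 1149 and 1369 CPM in their GFP- libraries. The populations did not overlap, and the mean was 700 ± 186 CPM in GFP+ and 1524 ± 321 CPM in GFP- libraries (SD, n = 4 each). Of the 57 genes, 46 passed the filter on low counts and were tested among 12564 genes in all, by edgeR's quasi-likelihood test blocked on fish. Their log2 fold change was negative for 36 and positive for 10, with a median of -0.88, whereas the median over all genes tested was -0.02.

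At an FDR under 0.01, 4 of the 46 were lower in GFP+ libraries, where 5.68% of all genes tested were, and 1 was higher, where 3.13% were. A share of 4 in 46 lies near that of all genes. Among the lower genes were the GABA-A subunit *gabra6a*, the NMDA subunit *grin1b* and the kainate subunit *grik1a*, and the gene that was higher was the scaffold gene *grid2ipb*. Without the block for fish, or without scaling factors, *gabra6a* alone was called lower. Of the receptor genes that the symbol rule found, 0 of 45 tested were called higher by edgeR's quasi-likelihood test and 0 by DESeq2, with 1 of 45 (*drd4a*) at an unadjusted p under 0.05, where 10.7% of all genes tested were. The nicotinic subunit gene *chrnb5b*, which the rule missed because the annotated table gives it another name, was called higher (log2 fold change 2.32, SE 0.407, FDR 2.91e-04). In the other direction 14 of 45 receptor genes had an unadjusted p under 0.05 (31.1%, and 15.8% of all genes tested). At an FDR under 0.05, 9 of the 45 receptor genes of the rule were lower (9.57% of all genes tested were). Among them were *gabra6b*, *drd4b*, *gabrd* and *grin1a*. Of the 46 genes, *grid2ipb* alone was higher (5.6% of all genes tested were). Non-overlapping CPM, lower in GFP+ libraries, was found for 7 of the 46 tested genes (8.96% of all genes tested). A lower ratio in every fish was found for 16 of the 46 (18.8% of all genes tested).

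**Figure D1:**
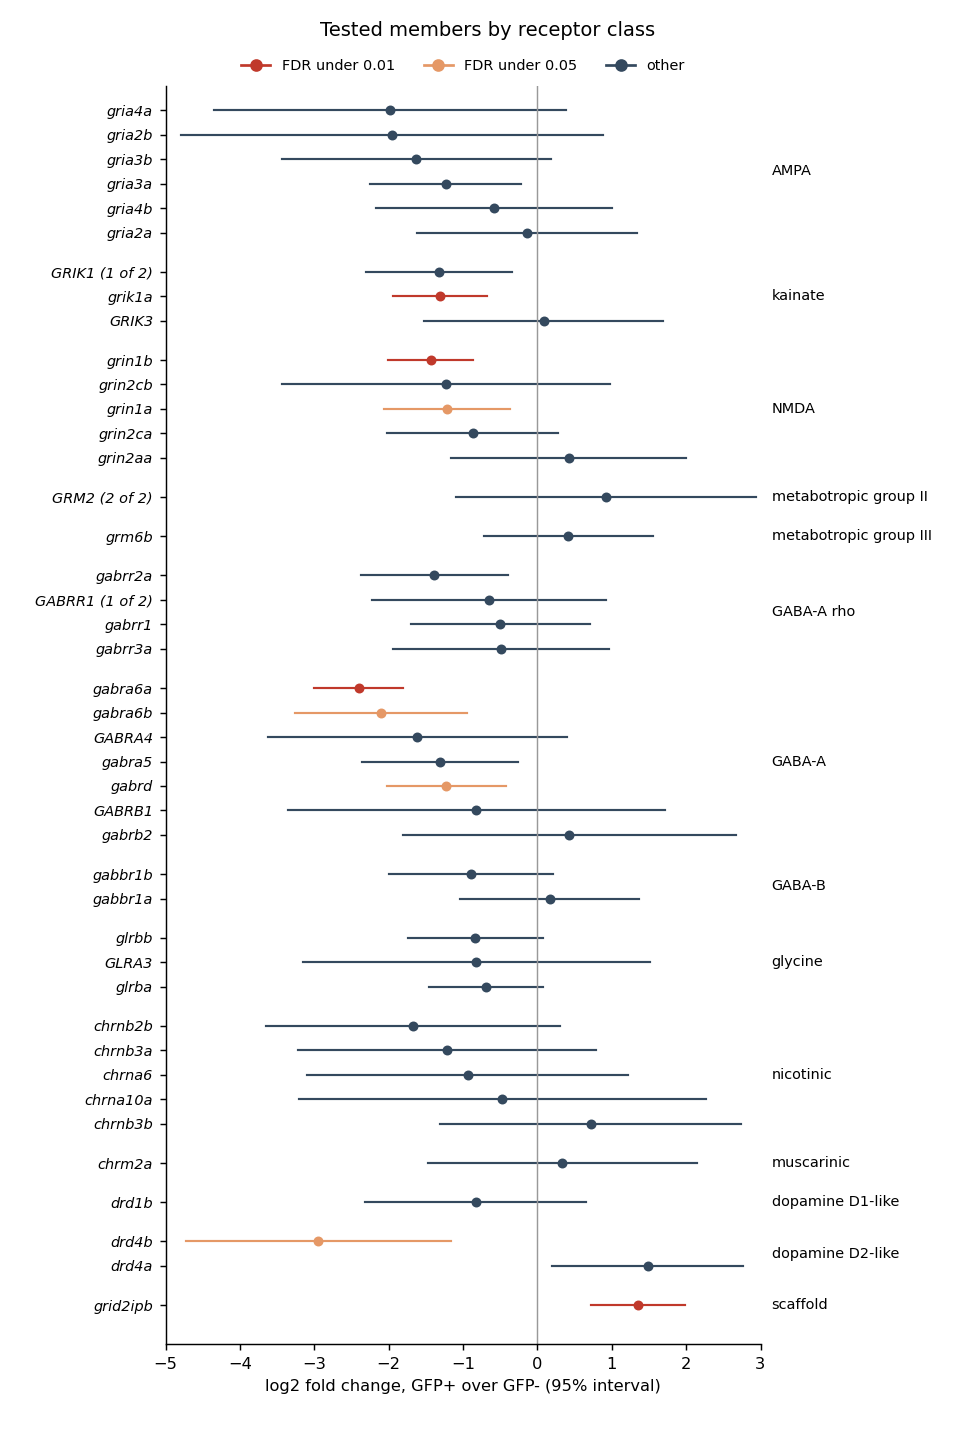
Log2 fold change of GFP+ over GFP- libraries for 42 of the 46 tested genes, grouped by receptor class. Points are edgeR's estimates and bars are 95% intervals derived from its test statistic. Colours mark an FDR under 0.01, under 0.05 and other genes. Estimates lie left of 0 for 32 of them, and all 6 tested AMPA subunits are among them with intervals that, but for *gria3a*, reach past 0.

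GABA-A receptors are pentamers of alpha and beta subunits with a gamma, delta or other subunit. The 10 genes of the class summed to 325, 264, 186 and 209 CPM in GFP+ libraries, against 972, 692, 626 and 559 CPM in GFP- libraries. Of the 10, all tested, 2 were lower in rods at an FDR under 0.01 (5.68% of all genes tested were) and 5 at an FDR under 0.05 (9.57%), 9 had a negative log2 fold change, and the median was -1.24.

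The alpha 6 subunit gene *gabra6a* (ENSDARG00000075058, chromosome 14, 23155025 to 23171754 on Zv9) is related to the alpha subunit that is best known from cerebellar granule cells of mammals. It had 95.6, 32.1, 51.7 and 42.6 CPM in GFP+ libraries of fish 1 to 4, against 519, 295, 195 and 176 CPM in GFP- libraries. Every GFP+ library lay below every GFP- library, and the level fell in all 4 fish. The log2 fold change was -2.40 (SE 0.289, FDR 3.84e-06). Among receptor genes of the symbol rule, *gabra6a* alone stayed below an FDR of 0.01 under every alternative tried. Its annotated span shares 5 bases with *nudcd2* on the other strand, which had 29.9 CPM in GFP+ and 9.73 CPM in GFP- libraries on average. The second alpha 6 gene, *gabra6b* (ENSDARG00000058736), named here after its values were seen, had 1.96, 3, 9.21 and 8.61 CPM in GFP+ libraries and 12.8, 18.4, 19.6 and 37.2 CPM in GFP- libraries, again without overlap (log2 fold change -2.10, SE 0.557, FDR 0.0111). Since the strand setting of the counting is not given in the sources used here, reads of overlapping genes on opposite strands cannot be told apart where their exons overlap.

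Among the other GABA-A subunits, *gabrd*, the delta subunit of extrasynaptic receptors, had 32.4, 36.8, 8.50 and 18.1 CPM in GFP+ libraries and 50.9, 64.1, 57.9 and 37.9 CPM in GFP- libraries. Every GFP+ library lay below every GFP- library (log2 fold change -1.23, SE 0.384, FDR 0.0324). The subunit genes *GABRA4*, *GABRB1* and *gabrb2* missed an FDR of 0.05. Of these, *gabrb2* lies next to *gabra6a* on chromosome 14, ending at 23276808, and had 5.24, 1.71, 4.25 and 1.81 CPM in GFP+ libraries and 2.81, 4.22, 1.03 and 1.28 CPM in GFP- libraries, which puts both populations near the floor of 3 counts.

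**Figure D2:**
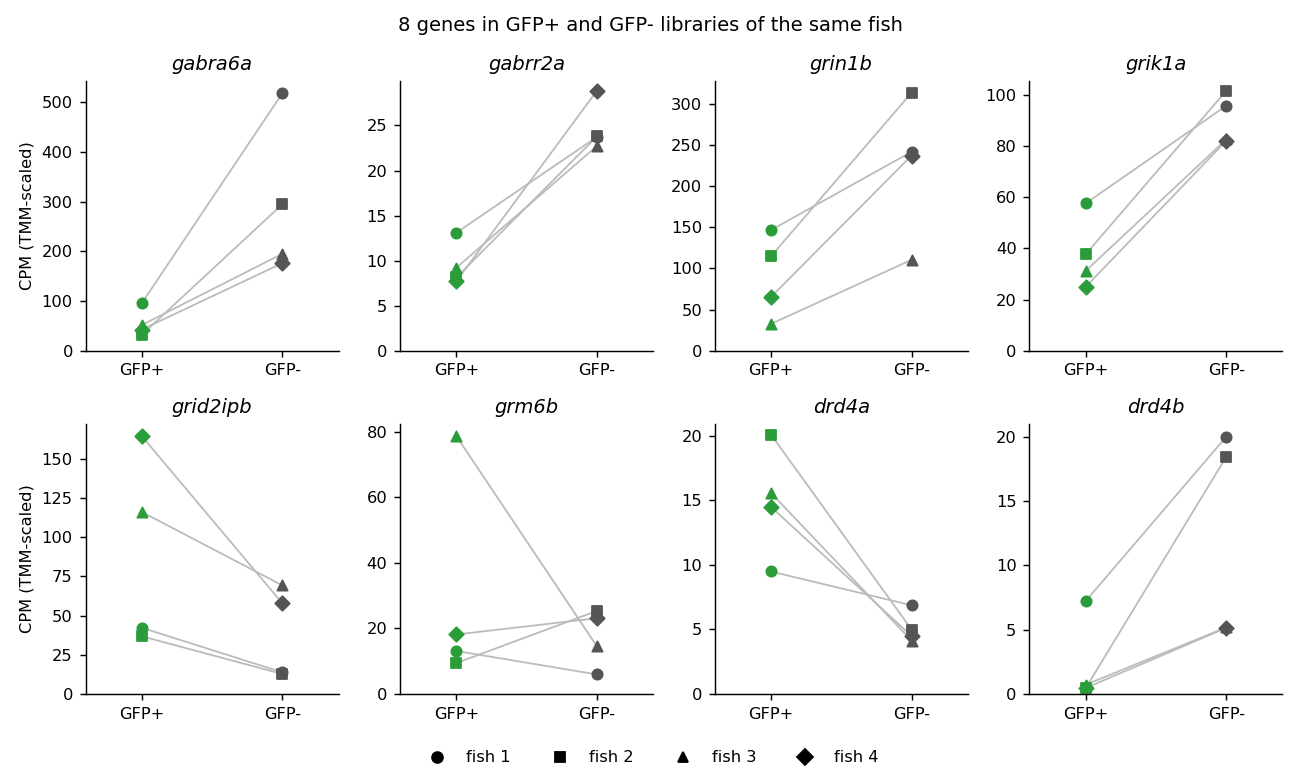
CPM of 8 genes, with GFP+ libraries at the left and GFP- libraries at the right of each panel, 1 symbol shape per fish and a line joining the libraries of 1 fish; each axis starts at 0 and has its own range. *gabra6a*, *gabrr2a*, *grin1b*, *grik1a* and *drd4b* were lower in the GFP+ library of each fish, *grid2ipb* and *drd4a* were higher in each fish, and *grm6b* went either way.

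The rho subunits form GABA-gated chloride channels that are slow and sustained, and are best known from bipolar cells. Their 5 genes summed to 48.1, 44.5, 32.6 and 28.6 CPM in GFP+ libraries, against 80.6, 94, 32 and 58.4 CPM in GFP- libraries. The sum was lower in GFP+ libraries for fish 1, 2 and 4 and nearly equal for fish 3. None of the 4 tested was called by edgeR or by DESeq2, and 1 had an unadjusted p under 0.05. That gene, *gabrr2a* (ENSDARG00000052982), had 13.1, 8.13, 9.21 and 7.70 CPM in GFP+ libraries and 23.7, 23.8, 22.7 and 28.9 CPM in GFP- libraries. The populations were well apart, at a log2 fold change of -1.39 (SE 0.477) and an FDR of 0.0514. In contrast, *gabrr1* overlapped, with 13.4, 7.70, 20.5 and 11.8 CPM in GFP+ libraries and 31.2, 21.9, 4.13 and 19.2 CPM in GFP- libraries. Its fish 3 pair ran against the other 3, and the 95% interval of its log2 fold change ran between -1.70 and 0.71. *GABRR1 (1 of 2)* depended on the fish more than on the population: fish 2 had 20.1 CPM in GFP+ and 25.7 CPM in GFP- cells, while fish 3 had 0 CPM in GFP+ and 1.03 CPM in GFP- cells.

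GABA-B receptors are pairs of a ligand-binding subunit, encoded by *gabbr1a* and *gabbr1b*, and the signalling subunit encoded by *gabbr2*. *gabbr1a* had 11.8, 17.5, 6.37 and 19.5 CPM in GFP+ libraries and 8.43, 6.14, 20.7 and 18.0 CPM in GFP- libraries, which overlap throughout (95% interval of the log2 fold change -1.04 to 1.37). *gabbr1b* had 41.6, 28.2, 2.83 and 6.80 CPM in GFP+ libraries and 38.1, 20.0, 23.8 and 29.5 CPM in GFP- libraries. For this gene the log2 fold change was 0.31 in fish 1 and 2 and -2.49 in fish 3 and 4, and the interaction had an FDR of 0.361 in edgeR. *gabbr2* was not tested, with at most 6 counts in a GFP+ library and at most 8 in a GFP- library. The interaction passed an unadjusted p of 0.05 for 3 of the 46 genes, *gabbr1b* and *chrna6* among them (6.07% of all genes tested) and an FDR of 0.01 for 0 (0.0398%). Whether the label suffix of fish 3 and 4 marks a technical batch is not stated in the sources used here.

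Glycine receptors are built from alpha subunits and the beta subunit, which ties the channel to gephyrin. Both beta genes were measured well. *glrba* had 30.1, 30.8, 24.8 and 28.1 CPM in GFP+ libraries and 60.6, 67.5, 15.5 and 55.8 CPM in GFP- libraries. *glrbb* had 20.3, 24.4, 20.5 and 12.2 CPM in GFP+ libraries and 26.5, 44.5, 16.5 and 62.2 CPM in GFP- libraries. For both genes, fish 3 ran against the other 3 fish, since its GFP- library held little of either transcript, and neither passed an FDR of 0.05 (log2 fold changes -0.69, SE 0.371, and -0.84, SE 0.439). *GLRA3* was the only alpha subunit gene among the members, with 2 to 7 counts in GFP+ and 0 to 23 counts in GFP- libraries.

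NMDA receptors are glutamate-gated cation channels that need the GluN1 subunit, which is encoded here by *grin1a* and *grin1b*. The 6 NMDA genes summed to 194, 186, 62.3 and 97.9 CPM in GFP+ libraries and 323, 399, 180 and 300.0 CPM in GFP- libraries. *grin1b* (ENSDARG00000025728, chromosome 5, 31237646 to 31281871) had 147, 115, 32.6 and 65.3 CPM in GFP+ libraries, against 242, 314, 111 and 237 CPM in GFP- libraries. The level fell in all 4 fish, although the ranges overlap through the low GFP- library of fish 3 (log2 fold change -1.44, SE 0.278, FDR 8.03e-04). The FDR was 0.0161 without fish 4, with a log2 fold change of -1.27. *grin1a* (ENSDARG00000027828) followed the same order at 27.8, 35.5, 3.54 and 16.8 CPM in GFP+ libraries and 52.8, 56.4, 28.9 and 32.7 CPM in GFP- libraries (log2 fold change -1.22, SE 0.408, FDR 0.0458), and leaving out any 1 fish gave an FDR between 0.0887 and 0.139. The GluN2 genes *grin2aa*, *grin2ca* and *grin2cb*, which set the kinetics of the channel, missed the threshold. Their GFP+ libraries had 0 to 19.8 CPM and their GFP- libraries 1.03 to 21.7 CPM.

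Kainate receptors containing the GluK1 subunit serve OFF bipolar cells of mammals. *grik1a* (ENSDARG00000069139, chromosome 10, 26037453 to 26205077) had 57.6, 37.7, 31.2 and 24.9 CPM in GFP+ libraries, against 95.9, 102, 82.7 and 82.1 CPM in GFP- libraries. The populations did not overlap (log2 fold change -1.31, SE 0.302, FDR 0.00378). The call needed all 4 fish, since leaving out any 1 of them gave an FDR between 0.013 and 0.0412 at log2 fold changes between -1.53 and -1.16. The second copy, *GRIK1 (1 of 2)* (ENSDARG00000040627), had 13.4, 31.2, 0.708 and 5.89 CPM in GFP+ libraries and 38.4, 54.5, 4.13 and 15.4 CPM in GFP- libraries. It was nominally lower in every fish while the fish differed widely (log2 fold change -1.33, SE 0.474, FDR 0.0622). *GRIK3* had an estimate near 0 with a 95% interval of -1.53 to 1.69.

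AMPA receptors, the fast glutamate channels of most central synapses and of horizontal and OFF bipolar cells, gave few counts in both populations. Their 7 genes summed to 66.1, 44.9, 31.2 and 16.3 CPM in GFP+ libraries and 63.7, 101, 51.7 and 57.1 CPM in GFP- libraries, lower in GFP+ libraries for fish 2, 3 and 4 and close to equal for fish 1. All 6 tested genes had a negative log2 fold change, with a median of -1.43. None was called by edgeR or DESeq2, and 1, *gria3a*, had an unadjusted p under 0.05. *gria3a* had 25.9, 18.8, 6.37 and 5.44 CPM in GFP+ libraries and 21.9, 46.1, 20.7 and 30.2 CPM in GFP- libraries. The GFP+ libraries of fish 3 and 4 were the lowest, and that of fish 1 lay above 2 GFP- libraries (log2 fold change -1.23, SE 0.489, FDR 0.0972). The GluA4 genes, textbook subunits of second-order cells, gave few counts: *gria4a* was at 24, 0, 9 and 0 counts in GFP+ libraries and 17, 30, 8 and 11 counts in GFP- libraries, and *gria4b* at 25, 20, 1 and 5 counts in GFP+ libraries and 31, 41, 2 and 4 counts in GFP- libraries. *gria2a* had an interval of -1.62 to 1.34, so that its direction was not resolved.

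The gene that was higher in rods by the symbol rule does not encode a receptor. *grid2ipb* (ENSDARG00000095603, chromosome 12, 19604562 to 19682203) encodes a homologue of delphilin, a scaffold protein of Purkinje cell synapses of mice. It had 42.2, 36.8, 116 and 165 CPM in GFP+ libraries, against 13.7, 12.7, 69.2 and 57.7 CPM in GFP- libraries. Fish 3 and 4 were higher than fish 1 and 2 in both populations, so that the ranges overlap although the level rose in every fish (log2 fold change 1.35, SE 0.305, FDR 0.00328). Without fish 1, fish 2 or fish 4 the FDR was 0.0352, 0.0197 or 0.0398, and without fish 3 it was 0.00271. With no block for the fish it was 0.278, at a log2 fold change of 1.23.

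**Figure D3:**
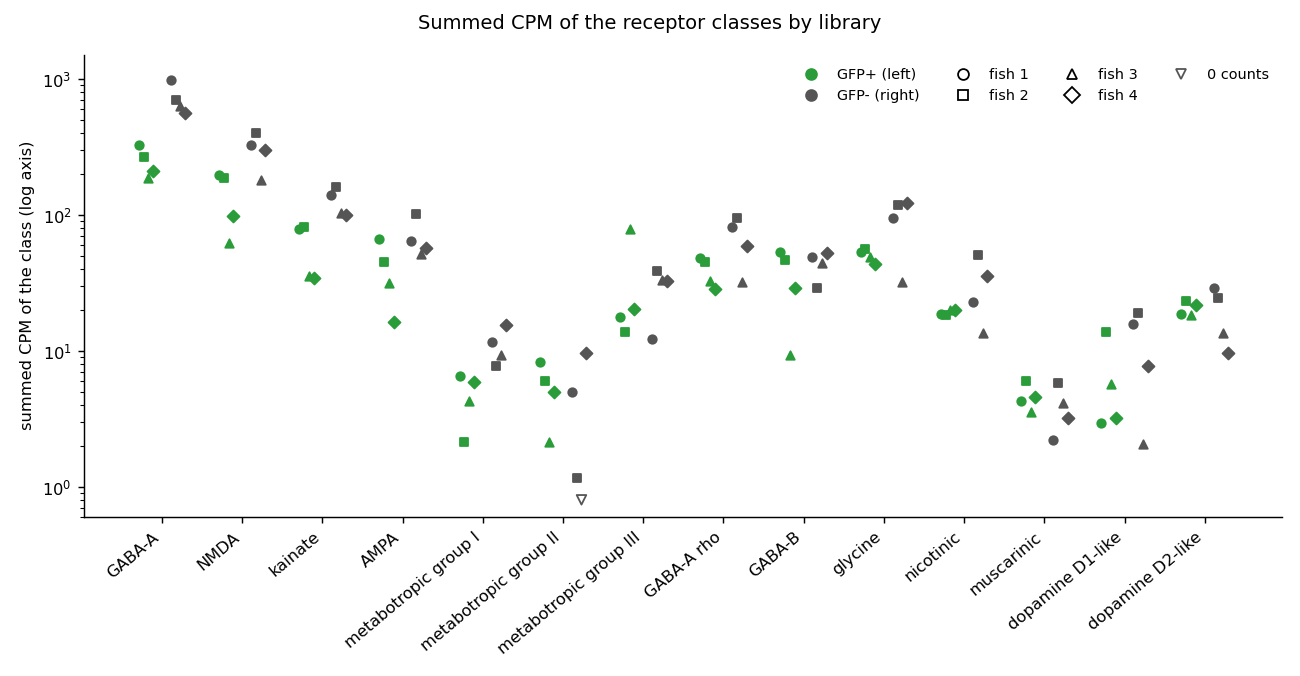
Summed CPM of each of 14 receptor classes by library on a log axis, with GFP+ libraries at the left (green) and GFP- libraries at the right (grey) of each class and 1 symbol shape per fish; a downward triangle marks 0 counts. GABA-A and kainate sums do not overlap and lie lower in GFP+ libraries. Group I metabotropic sums do not overlap either, but they rest on 5 to 20 counts in GFP+ and 9 to 37 counts in GFP- libraries. None of the 3 group I genes passed the filter on low counts, and no result is read from their sum. NMDA sums are lower in the GFP+ library of each fish with overlap, and the other classes overlap. Sums hold only genes of the symbol rule, so the nicotinic sum leaves out *chrnb5b*. They are not scaled by length and are not compared between classes.

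Metabotropic glutamate receptors were at the limit of detection, apart from *grm6b*. Of 8 genes, 6 were left out by the filter on low counts, among them all 3 of group I (mGluR1 and mGluR5, coupled to phospholipase C). *grm6b* (ENSDARG00000025671) is 1 of a pair of zebrafish genes for mGluR6, the receptor by which ON bipolar cells invert the photoreceptor signal. It had 13.1, 9.41, 78.6 and 18.1 CPM in GFP+ libraries and 5.93, 25.3, 14.5 and 23.1 CPM in GFP- libraries. A single library, the GFP+ library of fish 3 with 111 counts, stood far above the other 7, and the log2 fold change of 0.42 (SE 0.547, FDR 0.700) became -0.21 without that fish. *grm6a* gave 6, 6, 0 and 2 counts in GFP+ libraries and 9, 9, 2 and 6 counts in GFP- libraries. *grm8a*, a relative of the presynaptic receptor of mammalian photoreceptors, gave 4, 4, 0 and 1 counts in GFP+ libraries and 4, 18, 9 and 5 counts in GFP- libraries. These counts are too few for a test. *GRM2 (2 of 2)*, the only group II gene among the members, gave 25, 14, 3 and 11 counts in GFP+ libraries and 16, 3, 0 and 15 counts in GFP- libraries. The 95% interval of its log2 fold change ran from -1.09 to 2.94.

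Dopamine, released by amacrine and interplexiform cells in the light, acts on D1-like receptors that raise cAMP and on D2-like receptors, D4 included, that lower it. The log2 fold changes of the pair of D4 genes had opposite signs, and neither gene was called by edgeR's quasi-likelihood test. *drd4a* (ENSDARG00000038363, chromosome 25, 5274269 to 5284558) had 9.49, 20.1, 15.6 and 14.5 CPM in GFP+ libraries, against 6.87, 4.99, 4.13 and 4.49 CPM in GFP- libraries. All 4 GFP+ libraries lay above all 4 GFP- libraries, a pattern shared by 5.59% of all genes tested, and of the 45 tested receptor genes of the symbol rule only *drd4a* had it; *chrnb5b*, outside the rule, had it too. At 4 to 47 counts per library the log2 fold change of 1.48 (SE 0.620, 95% interval 0.20 to 2.77) had an FDR of 0.120. *drd4b* (ENSDARG00000035820, chromosome 7, 58677269 to 58715448) had 7.20, 0.428, 0.708 and 0.453 CPM in GFP+ libraries and 20.0, 18.4, 5.17 and 5.13 CPM in GFP- libraries. In 3 GFP+ libraries it was at a single count, and its level was lower in the GFP+ library of each fish (log2 fold change -2.95, SE 0.860, FDR 0.0209). edgeR's likelihood ratio test and DESeq2 gave it an FDR of 0.00218 and 0.00842, whereas it was 0.173 without fish 2 (log2 fold change -2.25) and 0.0793 without fish 4 (-2.82). Without fish 1, which gave 22 counts in GFP+ and 64 in GFP- cells, *drd4b* had too few counts to be tested. The same held without the block for fish and for fish 3 and 4 alone.

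The share of *drd4a* in the counts of the pair does not depend on how libraries are scaled. It was 56.9, 97.9, 95.7 and 97.0% in GFP+ libraries of fish 1 to 4, against 25.6, 21.3, 44.4 and 46.7% in GFP- libraries. The 95% Wilson intervals of the GFP+ shares ran between 43.3 and 99.6%, from 51, 48, 23 and 33 counts of both genes, and those of the GFP- shares between 12.9 and 73.3%, from 86, 61, 9 and 15 counts. It was higher in rods for all 4 fish and the populations did not overlap; this pair was singled out after its values were seen, and no test was made. The summed level of the 3 D2-like members overlapped between populations, with 18.7, 23.1, 18.4 and 21.8 CPM in GFP+ libraries and 29.0, 24.2, 13.4 and 9.62 CPM in GFP- libraries. *drd1b*, the only D1-like gene among the members, had 2.95, 13.7, 5.67 and 3.17 CPM in GFP+ libraries and 15.6, 18.8, 2.07 and 7.70 CPM in GFP- libraries. Its interval ran from -2.32 to 0.65. *drd3* was not tested, at 3 to 15 counts in GFP+ and 0 to 7 counts in GFP- libraries.

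For the other gene pairs the shares of the populations overlapped. *grin1b* made up 76.4 to 90.2% of the *grin1* counts in GFP+ libraries and 79.3 to 87.9% in GFP- libraries. For *gabra6a* the share of its pair was 83.2 to 98% in GFP+ libraries and 82.6 to 97.6% in GFP- libraries, with fish 1 highest in both populations. *glrba* made up 54.7 to 69.7% in GFP+ and 47.3 to 69.5% in GFP- libraries. For *gabbr1a* it was higher in rods for each fish, at 22.1, 38.3, 69.2 and 74.1% in GFP+ libraries and 18.1, 23.5, 46.5 and 37.8% in GFP- libraries, with overlap between the populations. How alike the sequences of such copies are was not examined, so reads may have been split between them.

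**Figure D4:**
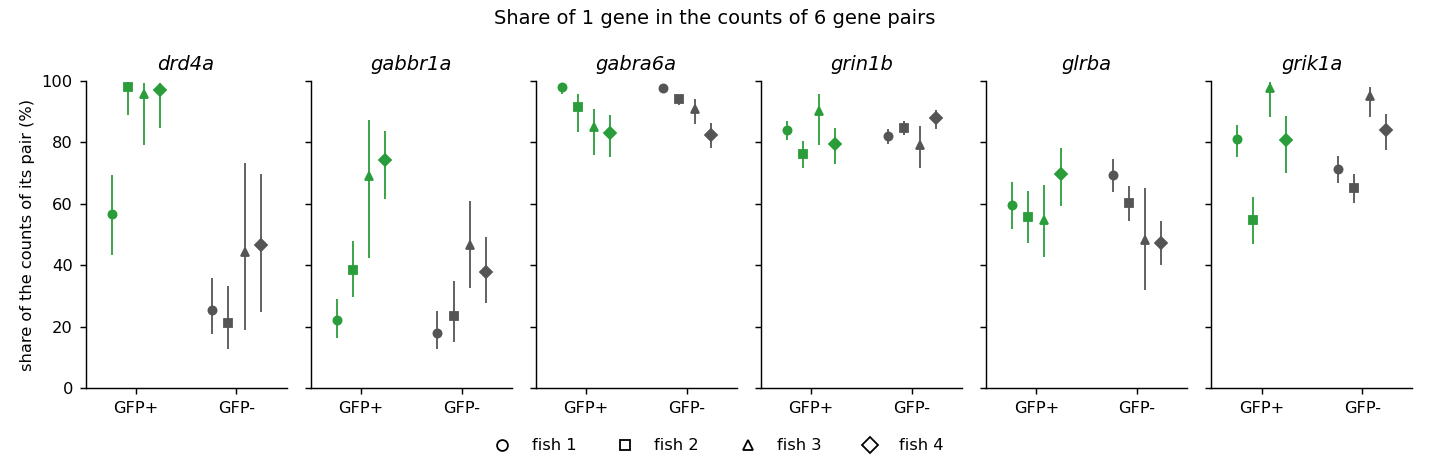
Share of the named gene in the counts of its gene pair (%), for 6 pairs, with GFP+ libraries at the left (green), GFP- libraries at the right (grey), 1 symbol shape per fish and bars for 95% Wilson intervals, which cover counting error only. For *drd4a* the GFP+ shares start at 56.9% and the GFP- shares end at 46.7%, whereas both populations overlap for the other 5 pairs.

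The 5 nicotinic genes of the symbol rule, subunits of cation channels that serve amacrine and ganglion cells, summed to 18.7, 18.4, 19.8 and 19.9 CPM in GFP+ libraries and 22.8, 50.3, 13.4 and 35.3 CPM in GFP- libraries. None was called by edgeR or DESeq2, and 0 of 5 had an unadjusted p under 0.05. The nicotinic gene *chrnb5b*, outside the rule, is not part of these sums and was called higher. It had 16.7, 52.2, 127 and 34.0 CPM in GFP+ libraries and 3.44, 8.83, 14.5 and 13.5 CPM in GFP- libraries. *chrna6* had 0.982, 0.428, 8.50 and 11.3 CPM in GFP+ libraries and 5.93, 14.2, 2.07 and 6.42 CPM in GFP- libraries. Fish 1 and 2 thus ran one way (log2 fold change -3.55) and fish 3 and 4 the other (1.31), and the interaction had an FDR of 0.549 in edgeR. *chrnb3b* had 4.26, 13.7, 7.08 and 3.17 CPM in GFP+ libraries and 2.50, 0.768, 4.13 and 15.4 CPM in GFP- libraries, with the fish 4 pair against the other 3. The muscarinic gene *chrm2a*, for a Gi-coupled receptor, had 3.54 to 5.99 CPM in GFP+ libraries and 2.19 to 5.76 CPM in GFP- libraries.

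Presence in GFP+ libraries was graded by counts. Of the 57 genes, 39 had a count in all 4 GFP+ libraries and 47 in all 4 GFP- libraries. Among the 12564 genes tested, which leave out the lowest counts, 10766 and 11116 did. Of the 57, 0 lacked a count in every GFP+ library. That 0 is tied to the choice of members, which come from an annotated table of 13325 of the 33737 gene IDs. Outside the members, 54 further IDs carry a receptor symbol, and 11 of those had 0 counts in every library. A total of 17 members averaged under 10 counts per library. Among the 11 members left out of the test, 7 had a lower mean CPM in GFP+ libraries. Of these, *GRM5 (2 of 2)* and *grm4* had non-overlapping values, all of them close to the floor. They had 0 to 1.81 and 0 to 1.31 CPM in GFP+ libraries and 1.87 to 5.77 and 2.19 to 7.23 CPM in GFP- libraries. The share of all untested genes with either pattern was not computed. Among genes tested, 8.96% were lower in GFP+ libraries without overlap. At such counts no result is read from these members.

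Partner proteins of the receptors, from a list of auxiliary subunits, scaffolds and signalling components, were called about as often as genes in general. Of 52 tested, 2 were lower in rods at an FDR under 0.01 (5.68% of all genes tested were) and 1 was higher (3.13%). The median of their log2 fold changes was -0.69. *arhgef9a*, which encodes the collybistin that brings gephyrin to inhibitory synapses, had 41.6, 16.7, 87.8 and 37.6 CPM in GFP+ libraries and 77.8, 83.7, 156 and 210 CPM in GFP- libraries (log2 fold change -1.62, SE 0.330, FDR 0.00134). *gnao1b*, for the G protein alpha subunit that mGluR6 drives, had 77.9, 88.6, 49.6 and 58.5 CPM in GFP+ libraries and 231, 219, 77.5 and 185 CPM in GFP- libraries (log2 fold change -1.31, SE 0.277, FDR 0.00181). *arhgef9a* and *gnao1b* fell in every fish, but no partner was called lower without fish 2 or without fish 4, and 1 was without fish 1. The copy *gnao1a* was not lower. It had 100.5, 85.1, 114 and 78.86 CPM in GFP+ libraries and 66.2, 81.4, 85.8 and 78.92 CPM in GFP- libraries (log2 fold change 0.27, FDR 0.600).

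The partner that was higher in GFP+ libraries was *lrit3a*, for a leucine-rich repeat protein that photoreceptors of mice use to assemble the mGluR6 cascade across the synapse. It had 173, 218, 239 and 238 CPM in GFP+ libraries, against 85.9, 74.8, 86.8 and 73.1 CPM in GFP- libraries, with the populations far apart (log2 fold change 1.43, SE 0.264, FDR 5.07e-04), and without the block for fish it was not called. Of the 13 tested genes of that cascade, *lrit3a* among them, 5 had a positive log2 fold change and 8 a negative one, and *lrit3a* was the only one called higher. *trpm1a*, for the ON bipolar cation channel, had 45.8, 41.9, 29.0 and 43.5 CPM in GFP+ libraries and 65.6, 121, 30.0 and 64.8 CPM in GFP- libraries (FDR 0.176). Its copy *trpm1b* had 161, 126, 35.4 and 120 CPM in GFP+ libraries and 85.9, 45.3, 95.1 and 89.8 CPM in GFP- libraries (FDR 0.529), lower in the GFP+ library for fish 3 only, the fish whose GFP+ library was high in *grm6b*. *trpm1a*, *trpm1b* and *nyx* are also on the list of bipolar markers. AMPA and kainate auxiliary subunits had 0 of 9 called at an FDR under 0.01, with 1, *neto1*, at an FDR under 0.05. *neto1*, a kainate receptor partner, had 14.1, 4.71, 2.83 and 3.17 CPM in GFP+ libraries and 23.1, 20.0, 14.5 and 27.6 CPM in GFP- libraries (FDR 0.0210).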

How the data were processed

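Per the labels and the paper's methods, RNA of 8 sorted populations was amplified (Ovation RNA-Seq System V2), sequenced on a MiSeq and aligned to Zv9 with BWA; the authors deposited whole-number HTSeq counts per Ensembl gene, not normalized. Symbols and Zv9 coordinates came from the authors' annotated table, whose other columns hold their own fold changes, p-values and normalized values and were not used here. HTSeq's counters were left out; they made up 34.4 to 55.3% of library totals. Versions of the authors' tools are not given in the sources used here, and 0 per-sample columns were left unmapped.

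Counts were fitted in R 4.3.3 with edgeR 4.0.16 (TMM, filterByExpr, trended dispersion, quasi-likelihood F test, fish as a block, Benjamini-Hochberg adjustment over 12564 genes). edgeR's prior count is part of the log2 fold changes. edgeR gave no SE here: each SE is the absolute log2 fold change divided by the square root of F. The 95% intervals add and subtract this SE times a t quantile. Both are approximate, most of all for estimates near 0. Within-fish ratios used CPM + 1. Pairing comes from the paper's methods, which state that both populations came from the retinas of 1 fish. Deviations of same-fish libraries correlated at 0.323, 0.292, 0.333 and 0.214, those of other fish at -0.169 to -0.062 on average. Deviations were taken from the mean of each population, so a positive same-fish value makes those of other fish negative by arithmetic. Alternatives were no block, edgeR's likelihood ratio test, DESeq2 1.42.0, other scaling and filters, each fish left out, and either label subset. The test was also run on simulated counts without differences between fish, with large changes planted only in genes above the median level. That setting differs from these data, so recovery of the receptor genes was not checked. Tables and figures used matplotlib 3.10.9, numpy 2.4.6 and pandas 2.3.3 on Python 3.11.15.

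The members and lists were chosen with earlier results of these data known. Members described singly were those called at an FDR under 0.01 (up to 12 each way), the 2 of each class with the highest mean CPM, the 8 with the highest mean CPM in GFP+ libraries, and the *drd4*, *grm6*, *grm8*, *grik1*, *gria4*, *gabrr1* and *gabrr2* genes; others were named after their values were seen. Horizontal, ganglion, glial, pigment epithelium and erythrocyte markers were also listed: in GFP+ libraries 0 of 3, 0 of 4, 0 of 9, 0 of 3 and 4 of 5 tested were lower at an FDR under 0.01, and 0 were higher. A total of 4 members enter the counts and class sums but are not reported here singly. No genome or sequence table was used, so no sequences are given.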

Additional observations from a re-analysis of the deposited data

Results flagged for a closer look

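A test for a single library far from the other 3 of its population was applied to 58 groups of 4 libraries, and 2 were marked, where chance marks about 1 in 20. The GFP+ library of fish 3 had 78.6 CPM of *grm6b*, against 9.41 to 18.1 CPM in the other GFP+ libraries. For *drd4b*, the GFP+ library of fish 1 had 7.20 CPM, from 22 counts, where the other 3 GFP+ libraries had 1 count each.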

How the results depend on the processing

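With no replicate block, in place of pairing by fish, the genes lower and higher in GFP+ libraries numbered 1 and 0 (4 and 1 with the block), and the partners 0 and 0 (2 and 1); of all genes tested, 1.38 and 0.438% were called, against 5.68 and 3.13% with the block. Without scaling factors, which moved the median log2 fold change of all genes to 0.33, 1 gene and 0 partners were lower (2.97% of all genes), and the median of the genes was -0.55. The likelihood ratio test and DESeq2 gave 7 and 5 lower partners (8.85 and 7.59% of all genes). At an FDR under 0.05, 9 genes and 8 partners were lower (9.57%). Leaving out 1 fish gave 1 to 4 lower and 0 to 1 higher genes, and 0 to 3 lower partners (2.90 to 4.55% of all genes lower, 1.61 to 2.82% higher). Fish 1 and 2 alone gave 1 lower and 0 higher genes (4.81 and 3.58% of all genes); fish 3 and 4 alone gave 2 lower and 0 higher (1.97 and 0.965%), 0 partners either way and a median of -1.51. The cause was not tested; fewer samples enter the last fits.

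Directions turned, for genes never called, as follows. *gria2a* had 0.069 with no block, 0.19 without scaling factors and -0.63 to 0.41 when a fish was left out. Fish 1 and 2 alone gave -0.13 for *grm6b*, 0.057 for *GABRR1 (1 of 2)* and 0.34 for *gabbr1b*. Fish 3 and 4 alone gave 0.58 for *gabrr1*, -0.76 for *gabbr1a*, 1.27 for *chrna6* and -0.89 for *chrnb3b*. Leaving out a fish gave -0.21 to 1.05 for *grm6b*, -0.29 to 0.71 for *gabbr1a*, -1.86 to 0.12 for *chrna6* and -0.26 to 1.77 for *chrnb3b*. Among values of single genes under alternatives, 279 kept direction and call, 18 lost the call, 3 gained it and 15 turned. Depth limits the 17 genes with under 10 counts per library: most were not tested, and none passed an FDR of 0.05.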

Other observations

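The symbol rule reads 1 table, and 54 further gene IDs carry a receptor symbol in a separate table of gene names; 11 of them had 0 counts in every library and 3 were tested. One, chosen after its values were seen, was called higher in rods: the nicotinic subunit gene *chrnb5b* (ENSDARG00000021392, listed as CU459160.1 in the annotated table; chromosome 14, 43024314 to 43048797 on Zv9, next to *chrnb3b* at 43051750 to 43063633). It had 51, 122, 179 and 75 counts in GFP+ libraries, against 11, 23, 14 and 21 counts in GFP- libraries, or 16.7, 52.2, 127 and 34.0 CPM in GFP+ and 3.44, 8.83, 14.5 and 13.5 CPM in GFP- libraries. All GFP+ libraries lay above all GFP- libraries (log2 fold change 2.32, SE 0.407, FDR 2.91e-04 by edgeR's quasi-likelihood test). Whether the call of *chrnb5b* held under the alternatives was not examined. The neighbour *chrnb3b* overlapped between populations. The GABA-A subunit gene *gabrz* (ENSDARG00000094512) had 21, 28, 2 and 7 counts in GFP+ libraries and 32, 21, 1 and 7 counts in GFP- libraries, with a log2 fold change of -0.06 (FDR 0.976).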
